A study of Mus musculus with 4 samples.

Results

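The genes described here are 9 integrin chains of T cells, the alpha chains Itgae, Itga4, Itga6, Itgal and Itgav and the beta chains Itgb1, Itgb2, Itgb3 and Itgb7. They were taken by symbol from a counts table of 27179 genes, in which all 9 were found, and each passed the filter on low counts. RNA had been sequenced from CD4+Foxp3+ regulatory T (Treg) cells, which restrain immune responses, of C57BL/6 mice. Spleen and peripheral lymph nodes were the source, at steady state. The 2 P65KO libraries came from cells deficient in RelA (p65), a subunit of the NF-kB transcription factors, and the 2 WT libraries from wild-type cells. The sources used here do not give how RelA was removed, the age of the mice or whether a library pooled several animals. The comparison sets integrin transcripts of RelA-deficient Treg cells against those of wild-type Treg cells. The groups also differ in sex-linked transcripts, as given below, so a difference cannot be assigned to RelA alone.

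Integrins are cell-surface receptors made of 1 alpha and 1 beta chain, and a chain reaches the surface only with a partner. On lymphocytes they hold cells to vessel walls, to other cells and to the extracellular matrix, and the combination of chains sets which ligand is bound and where a cell can go. In Treg cells, alphaE (CD103) with beta7 is widely used as a mark of effector and tissue cells. AlphaV with beta8 is known for releasing active TGF-beta from its latent form.

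Each alpha chain ends in a cytoplasmic tail that begins with a short motif shared across the family, where the tail meets the beta chain under the membrane. The coding bases of that motif show what the 5 alpha members have in common. They were read, 5′ to 3′, from the GENCODE M21 transcripts of build GRCm38, with the 15 bases of the motif in capitals and 12 bases on each side.
Itgae: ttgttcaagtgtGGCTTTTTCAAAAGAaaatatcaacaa
Itga4: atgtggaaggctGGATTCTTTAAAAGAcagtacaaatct
Itga6: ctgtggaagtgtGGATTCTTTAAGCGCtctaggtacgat
Itgal: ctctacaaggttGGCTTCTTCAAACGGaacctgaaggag
Itgav: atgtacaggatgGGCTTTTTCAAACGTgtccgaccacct
The motif was found 1 time in each of the 5 coding sequences. It was followed by 23 residues in Itgae, 25 in Itga4, 25 in Itgav, 46 in Itgal and 47 in Itga6. These lengths belong to 1 transcript per gene, the longest coding transcript in the consensus set. Other transcripts of these genes were not read.

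The 4 libraries held 4513863 to 4624230 counts, and the 9 members together took 18882 and 18804 counts in P65KO libraries, against 27295 and 25786 in WT libraries. Rela itself had 820 and 909 counts in P65KO libraries and 875 and 806 in WT libraries, so counts over the whole gene did not check the genotype label. Of 10 T cell and Treg identity genes, all with counts in each library, 6 did not pass the test described below. Cd3e, a chain of the T cell receptor complex, was among these 6, with 3275 and 3748 counts in P65KO libraries and 4216 and 4209 in WT libraries. So was Foxp3, the Treg lineage factor, with 1751 and 2385 counts in P65KO libraries and 1737 and 1724 in WT libraries. Ikzf2 (Helios), Ctla4 and Cd3g were 3.14-fold, 1.89-fold and 1.20-fold lower in P65KO cells and Il2ra (CD25) was 1.34-fold higher (edgeR quasi-likelihood, adjusted p of 1.33e-06, 3.63e-05, 0.0452 and 0.0106). The groups also differed in sex-linked transcripts: Xist had 0 and 2 counts in P65KO libraries and 494 and 608 in WT libraries. The Y chromosome genes went the other way. Ddx3y had 302 and 404 counts in P65KO libraries, Eif2s3y 332 and 432 and Kdm5d 199 and 239, all with 0 and 0 in WT libraries. Uty had 133 and 131 counts against 4 and 3. Genotype and sex, as read from these transcripts, cannot be told apart for any gene below. The summed level of 16 effector Treg markers was 547 to 575 CPM (counts per 1000000 counts of the library, scaled between libraries by TMM) in P65KO libraries and 2408 to 2426 CPM in WT libraries. That of 14 naive and central markers was 7824 to 8407 CPM against 4286 to 4691 CPM. In bulk RNA, fewer cells of a type and less RNA per cell cannot be told apart. The 25 myeloid and dendritic markers summed to 1482 CPM in P65KO replicate 1, 549 CPM in P65KO replicate 2 and 213 to 293 CPM in WT libraries. The 7 erythroid markers found summed to 106 and 192 CPM in P65KO libraries and 21.7 and 28.6 CPM in WT libraries, highest in P65KO replicate 2, and all 4 that were tested rose. The 10 natural killer and innate lymphoid markers summed to 122 and 55.1 CPM in P65KO libraries and 40.4 and 54.9 CPM in WT libraries. Tyrobp, on the myeloid list as well, held 102 and 39.9 CPM of this in P65KO libraries and 10.4 and 16.8 CPM in WT libraries. The 11 stromal and endothelial markers summed to 227 and 249 CPM against 177 and 142 CPM. Nearly all of that was Pecam1, the only 1 of the 11 tested, with 224 and 248 CPM against 175 and 140 CPM. The part of these lists in the members' values was not tested.

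Of the 9 members, 5 fell in P65KO Treg cells (Itgae, Itgb1, Itgav, Itga4 and Itgal), 2 rose (Itgb3 and Itga6) and 2 did not pass the test (Itgb2 and Itgb7). Here and below, a gene rose or fell where edgeR's quasi-likelihood test over all 11172 genes tested gave a Benjamini-Hochberg adjusted p under 0.05. By that rule 20.7% of all genes tested were called, 9% as higher and 11.7% as lower. The median log2 fold change of the members was -0.66, against 0.00 over all genes tested. The CPM values of the groups did not overlap for 7 of the 9 members, where 60.5% of all genes tested did not overlap. The members were chosen with results of these libraries known, so their count describes them and tests nothing about integrins as a class.

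**Figure D1:**
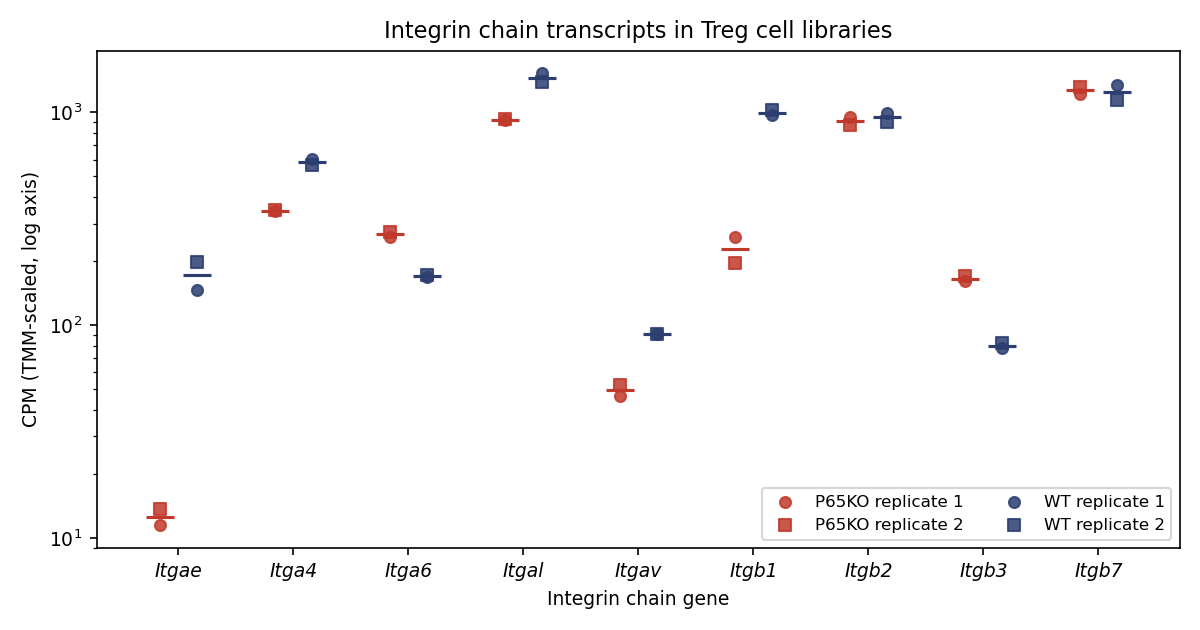
CPM (TMM-scaled, log axis) of the 9 integrin chain genes in each library, with P65KO left of WT, circles for replicate 1, squares for replicate 2 and a line at the group mean. Itgae stands at 11.5 and 13.7 CPM in P65KO libraries and at 146 and 198 CPM in WT libraries, while the points of Itgb2 and of Itgb7 overlap between groups.

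Itgae, the alpha chain that pairs with beta7 and binds E-cadherin on epithelial cells, differed most of the 9. It lies on chromosome 11, 73090505 to 73147449 on the plus strand (RefSeq, GRCm38.p6), and its longest coding transcript in the consensus set has 31 exons. It had 52 and 62 counts in P65KO libraries and 672 and 918 counts in WT libraries. That is 11.5 and 13.7 CPM in P65KO libraries and 146 and 198 CPM in WT libraries. The gap between the groups was far wider than the gap between the 2 WT libraries, which differed more than the P65KO pair. The mean was 12.6 ± 1.60 CPM in P65KO cells and 172 ± 36.6 CPM in WT cells (SD, n = 2 each). Itgae was 13.6-fold lower in P65KO cells (95% interval 10.4 to 17.7; log2 -3.77, SE 0.18; edgeR quasi-likelihood, adjusted p = 3.33e-08).

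Itgb7, the beta chain of alphaE and one of 2 partners of alpha4, did not pass the test. It lies on chromosome 15, 102215994 to 102233405, on the minus strand. It had 1220 and 1318 CPM in P65KO libraries and 1348 and 1137 CPM in WT libraries, and both P65KO values lay inside the WT range. The 95% interval of the P65KO over WT fold was 0.875 to 1.19 (edgeR quasi-likelihood, adjusted p = 0.876).

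Itga4, which with beta7 binds MAdCAM-1 of gut vessels and with beta1 binds VCAM-1, fell by a smaller step. Its gene spans chromosome 2, 79255426 to 79333114, plus strand, and its exons overlap those of Cerkl on the opposite strand in GENCODE M21, a gene with only 7 to 10 counts in each library. It had 342 and 346 CPM in P65KO libraries and 603 and 567 CPM in WT libraries. The 2 P65KO libraries were nearly equal and both lay below both WT libraries. Itga4 was 1.70-fold lower (95% interval 1.49 to 1.94; edgeR quasi-likelihood, adjusted p = 6.67e-05).

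Itgb1, the shared beta chain of receptors for fibronectin, laminin, collagen and VCAM-1, showed the second largest difference among the members. It lies on chromosome 8, 128685654 to 128733579, plus strand. It had 1174 and 882 counts in P65KO libraries and 4460 and 4750 counts in WT libraries, or 259 and 195 CPM against 968 and 1022 CPM. P65KO replicate 2 was the lowest, and both P65KO libraries were far below both WT libraries. The mean was 227 ± 45.0 CPM in P65KO cells and 995 ± 38.3 CPM in WT cells (SD, n = 2 each), 4.38-fold lower (95% interval 3.64 to 5.28; log2 -2.13, SE 0.12; edgeR quasi-likelihood, adjusted p = 2.07e-07).

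Itga6, which with beta1 forms a laminin receptor, went the other way. It lies on chromosome 2, 71786886 to 71858427, plus strand. It had 260 and 273 CPM in P65KO libraries and 168 and 171 CPM in WT libraries, with pairs close together inside each group. Itga6 was 1.57-fold higher in P65KO cells (95% interval 1.37 to 1.79; edgeR quasi-likelihood, adjusted p = 2.43e-04).

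Itgav, the alpha chain of vitronectin and fibronectin receptors that recognise the arginine-glycine-aspartate sequence, fell. It lies on chromosome 2, 83722303 to 83806917, plus strand, and overlaps the predicted gene Gm13684 on the opposite strand. It had 46.3 and 52.3 CPM in P65KO libraries and 90.9 and 90.8 CPM in WT libraries. Both WT values were nearly identical and lay above both P65KO values. Itgav was 1.84-fold lower (95% interval 1.57 to 2.17; edgeR quasi-likelihood, adjusted p = 9.85e-05).

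Itgb3, the beta chain that joins alphaV in the vitronectin receptor and alphaIIb in platelets, rose. It lies on chromosome 11, 104608000 to 104670476, plus strand. It had 728 and 765 counts in P65KO libraries and 361 and 381 counts in WT libraries, or 161 and 169 CPM against 78.3 and 82.0 CPM. The groups stood apart and each pair was close. Itgb3 was 2.06-fold higher in P65KO cells (95% interval 1.78 to 2.38; edgeR quasi-likelihood, adjusted p = 9.31e-06).

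Itgb3 is also a platelet and megakaryocyte gene. The other 13 markers on that list summed to 14.1 and 7.09 CPM in P65KO libraries and 5.21 and 5.16 CPM in WT libraries, with Pf4, Gp9 and Gp1bb at 0 counts in all 4. Itga2b, the platelet alphaIIb chain, had 32 counts in P65KO replicate 1, 4 in P65KO replicate 2 and 1 and 2 in WT libraries. The part of platelet RNA in the Itgb3 level was not tested.

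Itgal, the alpha chain of LFA-1 (CD11a), fell, and Itgb2 (CD18), the common beta chain of the leukocyte integrins, did not pass. Itgal lies on chromosome 7, 127296139 to 127335137, and Itgb2 on chromosome 10, 77530329 to 77565708, both on the plus strand. Itgal had 917 and 926 CPM in P65KO libraries and 1524 and 1381 CPM in WT libraries, with all P65KO values below all WT values. It was 1.58-fold lower (95% interval 1.37 to 1.81; edgeR quasi-likelihood, adjusted p = 2.76e-04).

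Itgb2 had 948 and 870 CPM in P65KO libraries and 997 and 898 CPM in WT libraries, and the 2 ranges overlapped. The 95% interval of the P65KO over WT fold was 0.831 to 1.11 (edgeR quasi-likelihood, adjusted p = 0.714). Myeloid cells also use Itgb2, with the alpha chains Itgam (CD11b) and Itgax (CD11c). Both of these rose, as given below, and their part in the Itgb2 level was not tested.

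**Figure D2:**
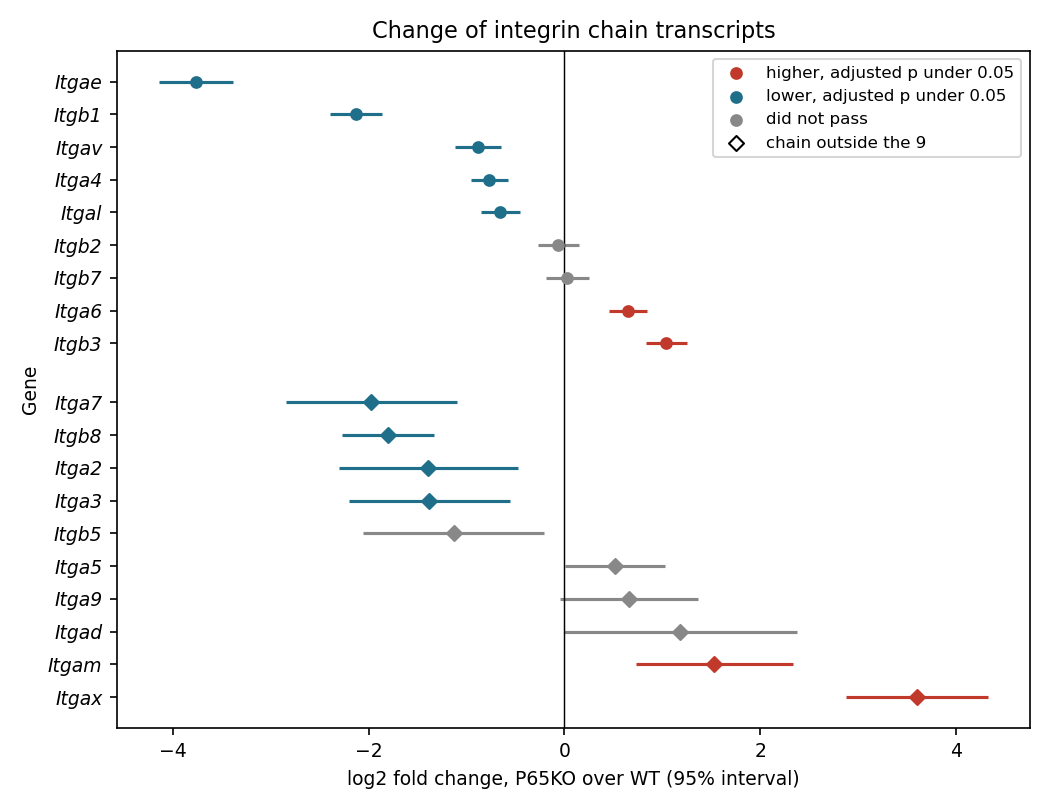
Log2 fold change, P65KO over WT, with its 95% interval for the 9 members (circles) and the 10 other integrin chains that passed the filter on low counts (diamonds), coloured by the edgeR call. Itgae lies at -3.77 and Itgb1 at -2.13, both with intervals that stay well below 0, and Itgb3 and Itga6 lie above 0.

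Read as heterodimer pairs, the 2 chains of a pair often moved by different amounts. Levels of different genes were set side by side as RPKM, the scaled CPM divided by the gene length in kilobases, with the lengths behind the deposited values. RNA ratios say nothing of how much protein pairs. With 2 libraries against 2, an exact two-sided permutation test cannot give a p below 0.333, so the ratios are described and not tested. Lengths cancel when a ratio is compared between groups, but they set its level within a library. By counts in place of RPKM, the log2 of Itga4 over Itgb1 was 0.40 and 0.83 in P65KO libraries, against -0.83 and -0.40 by RPKM. Likewise, that of Itgal over Itgb2 in WT libraries was 0.61 and 0.62 by counts and -0.26 and -0.25 by RPKM. Itgal over Itgb2 in P65KO replicate 2 and Itgav over Itgb3 in both WT libraries also changed sign.

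For alphaE beta7, Itgae stood at 2.51 and 3.003 RPKM in P65KO libraries beside 456 and 493 RPKM of Itgb7. In WT libraries Itgae stood at 31.9 and 43.2 RPKM beside 504 and 425 RPKM of Itgb7. Itgb7 thus exceeded Itgae 182-fold and 164-fold in P65KO libraries and 15.8-fold and 9.85-fold in WT libraries. For alpha4 beta7, the excess of Itgb7 over Itga4 was 13.1-fold and 14.002-fold in P65KO libraries and 8.22-fold and 7.37-fold in WT libraries.

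The beta1 pairs moved in the opposite sense, as Itgb1 fell more than Itga4 and Itgav did and Itga6 rose. Itgb1 exceeded Itga4 1.77-fold and 1.32-fold in P65KO libraries and 3.77-fold and 4.22-fold in WT libraries. For alpha6 beta1, the ratio of Itga6 to Itgb1 was 1.002 and 1.39 in P65KO libraries and 0.174 and 0.167 in WT libraries, a shift of 2.79 on the log2 scale. The 2 chains were level in P65KO replicate 1, Itgb1 was the scarcer in P65KO replicate 2, and it was the more abundant in both WT libraries.

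The same held for the sum of the members that can pair with beta1. Itga4, Itga6 and Itgav summed to 103 and 108 RPKM in P65KO libraries, where Itgb1 stood at 61.7 and 46.6 RPKM. They summed to 114 and 111 RPKM in WT libraries, where Itgb1 stood at 231 and 244 RPKM. By RPKM the alpha sum was alike in all 4 libraries, with Itga6 higher where Itga4 and Itgav were lower. Itgb1 was above that sum in WT and below it in P65KO libraries. Gene lengths weigh each chain in a sum and do not cancel there between groups. In CPM, without that weighting, the alpha sum was lower in both P65KO libraries than in both WT libraries. Itga4 had 342 and 346 CPM in P65KO libraries against 603 and 567 CPM, and Itga6 260 and 273 CPM against 168 and 171 CPM.

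For alphaV beta3, Itgav stood at 6.57 and 7.41 RPKM and Itgb3 at 27.8 and 29.3 RPKM in P65KO libraries. In WT libraries they were nearly equal, with Itgav at 12.9 and 12.9 RPKM and Itgb3 at 13.6 and 14.2 RPKM. The ratio of Itgav to Itgb3 was lower by 1.93 on the log2 scale in P65KO libraries, since the alpha chain fell and the beta chain rose. For alphaL beta2 the ratio of Itgal to Itgb2 was 0.530 and 0.582 in P65KO libraries and 0.837 and 0.842 in WT libraries, the smallest shift of the 7 pairs at -0.60 on the log2 scale.

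**Figure D3:**
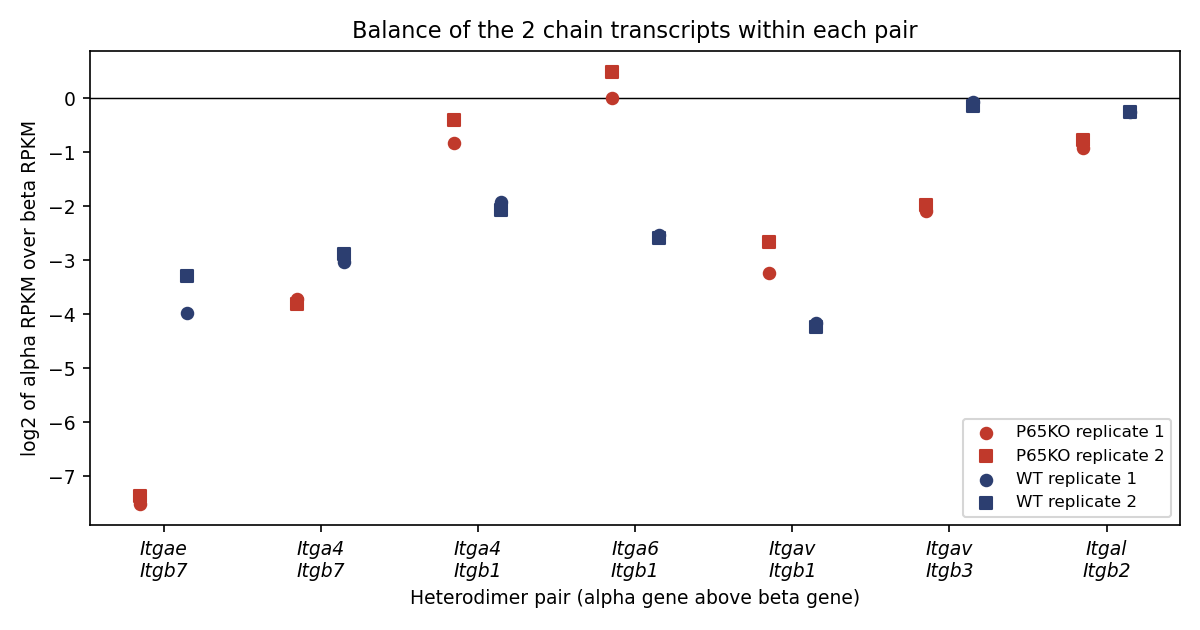
Log2 of the alpha chain RPKM over the beta chain RPKM for 7 heterodimer pairs in each library, P65KO left of WT, with 0 marking equal levels. In P65KO libraries the ratio is lower for Itgae over Itgb7 and Itgav over Itgb3, and higher for the 3 pairs with Itgb1. It is also lower, by smaller steps, for Itga4 over Itgb7 (-0.80) and Itgal over Itgb2 (-0.60).

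The order of the members by RPKM changed between groups. In P65KO libraries the mean levels ran from Itgb7 at 475 ± 25.98 RPKM through Itgb2 at 318 ± 19.1, Itgal at 176 ± 1.17, Itga6 at 63.4 ± 2.15, Itgb1 at 54.2 ± 10.7, Itga4 at 35.0 ± 0.276, Itgb3 at 28.5 ± 1.08 and Itgav at 6.99 ± 0.596 down to Itgae at 2.76 ± 0.350 RPKM (SD, n = 2). Itga6 at 61.9 RPKM and Itgb1 at 61.7 RPKM were about level in P65KO replicate 1, and the other neighbours in that order stood apart in both libraries. In WT libraries the order was Itgb7 at 465 ± 55.6 RPKM, Itgb2 at 331 ± 24.5, Itgal at 278 ± 19.3, Itgb1 at 237 ± 9.13, Itga4 at 59.5 ± 2.54, Itga6 at 40.4 ± 0.518, Itgae at 37.6 ± 7.99, Itgb3 at 13.9 ± 0.445 and Itgav at 12.9 ± 0.0130 RPKM (SD, n = 2). There, Itga6 and Itgae overlapped.

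As a share of the summed RPKM of the 4 beta members, Itgb1 made up 7.04% and 5.33% in P65KO libraries and 21.0% and 24.4% in WT libraries. Itgb7 made up 52.0% and 56.5% in P65KO libraries and 46.0% and 42.7% in WT libraries. Among the 5 alpha members, Itga6 held 22.0% and 22.6% of the summed RPKM in P65KO libraries and 9.15% and 9.73% in WT libraries. Itgae held 0.892% and 1.04% in P65KO libraries and 7.28% and 10.3% in WT libraries, while Itgal was the largest alpha share in all 4, between 61.6% and 66.6%.

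**Figure D4:**
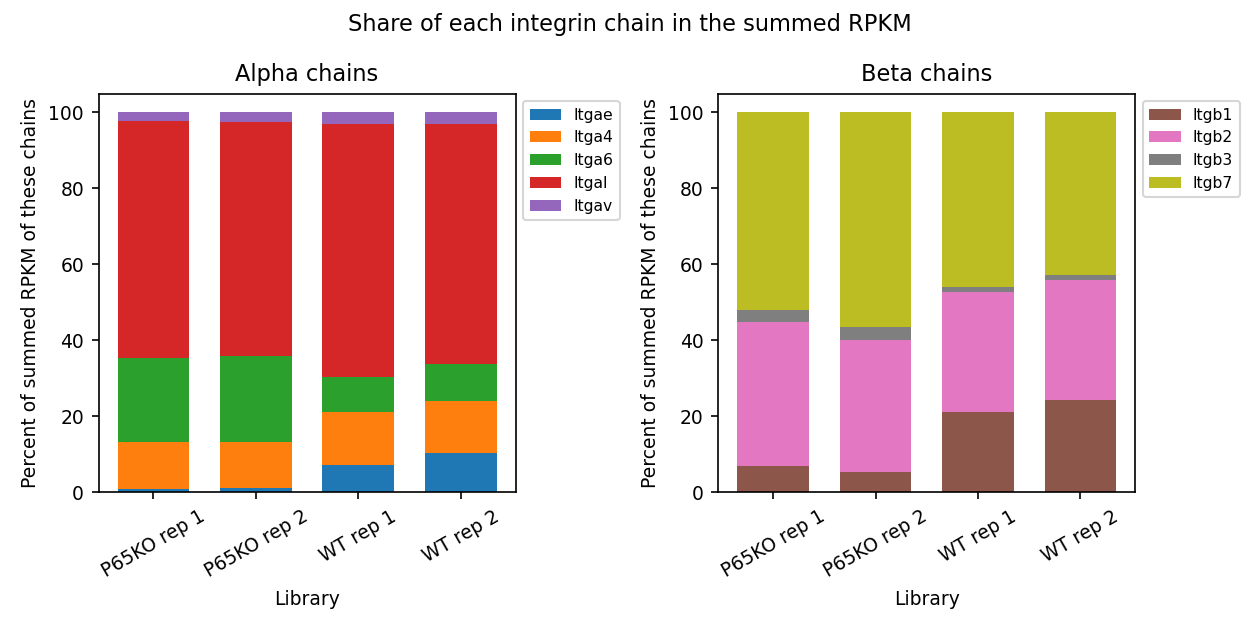
Share, in percent, of each chain in the summed RPKM of the 5 alpha members (left) and of the 4 beta members (right), 1 bar per library with P65KO left of WT. The Itgb1 share is below 8% in both P65KO libraries and above 20% in both WT libraries, and the Itga6 share is above 20% against below 10%.

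Promoter windows of 4 of the 9 members, Itgb1, Itga4, Itgav and Itgb7, were matched in RefSeq (GRCm38.p6), and Itgae, Itga6, Itgal, Itgb2 and Itgb3 were not matched. All 4 are shown, 3 of genes that fell and that of Itgb7, which did not pass the test. A window runs from 250 bases before to 50 bases after a start site, which is the first base of the gene for Itgb1 and Itga4 but lies 2094 bases inside the gene span given above for Itgav and 1470 bases inside it for Itgb7. The windows lie at chr8:128685404-128685703 for Itgb1, chr2:79255176-79255475 for Itga4, chr2:83724147-83724446 for Itgav, all on the plus strand, and chr15:102231886-102232185 for Itgb7 on the minus strand. Each is written 5′ to 3′ on the strand of the gene, and capitals mark a match to the kB-type motif GGNNTTTCC.
Itgb1: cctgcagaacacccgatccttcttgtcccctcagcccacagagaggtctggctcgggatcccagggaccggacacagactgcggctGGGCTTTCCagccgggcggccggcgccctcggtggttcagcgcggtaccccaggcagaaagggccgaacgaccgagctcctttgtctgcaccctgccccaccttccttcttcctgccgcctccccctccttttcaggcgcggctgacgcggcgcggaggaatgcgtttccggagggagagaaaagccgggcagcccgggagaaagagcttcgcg
Itga4: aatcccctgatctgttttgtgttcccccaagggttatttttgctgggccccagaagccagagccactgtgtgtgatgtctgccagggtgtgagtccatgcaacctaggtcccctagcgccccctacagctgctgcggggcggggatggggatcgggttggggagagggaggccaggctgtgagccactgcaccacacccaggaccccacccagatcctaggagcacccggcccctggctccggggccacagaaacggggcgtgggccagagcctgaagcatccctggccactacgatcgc
Itgav: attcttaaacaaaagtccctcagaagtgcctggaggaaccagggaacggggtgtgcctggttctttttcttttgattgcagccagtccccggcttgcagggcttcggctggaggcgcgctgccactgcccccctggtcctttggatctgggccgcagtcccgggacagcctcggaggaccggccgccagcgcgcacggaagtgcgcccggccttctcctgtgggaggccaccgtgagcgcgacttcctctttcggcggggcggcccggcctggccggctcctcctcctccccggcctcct
Itgb7: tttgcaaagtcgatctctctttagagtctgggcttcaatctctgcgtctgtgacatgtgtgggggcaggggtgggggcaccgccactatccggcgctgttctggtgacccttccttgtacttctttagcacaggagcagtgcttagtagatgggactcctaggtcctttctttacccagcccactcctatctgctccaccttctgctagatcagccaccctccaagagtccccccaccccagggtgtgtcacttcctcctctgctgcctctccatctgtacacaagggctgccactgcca
One match to the kB-type motif was found, in the Itgb1 window, GGGCTTTCC, starting 164 bases before the start site. No match stood in the windows of Itga4, Itgav and Itgb7. Of all 32851 RefSeq promoter windows of the same length, 5.82% held the motif on either strand. The ETS motif CCGGAAGT and the RUNX motif TGTGGTTT, held by 3.89% and 1.78% of all windows, were in none of the 4. The GC content was 67.3% in the Itgb1 window, 64.3% for Itga4, 67.3% for Itgav and 56.3% for Itgb7. A match is a run of letters and does not show that a factor binds there.

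Of 17 further integrin chain genes, 10 passed the filter on low counts, and of these 4 fell, 2 rose and 4 did not pass. That is a share of 60% called, beside 20.7% of all genes tested. The median log2 fold change of the 10 was -0.31, beside 0.00 over all genes tested. In mean RPKM, none of the 17 reached any of the 9 members in WT cells or Itgb3 in P65KO cells. In P65KO cells, Itgax at 17.7 RPKM was above Itgav at 6.99 RPKM and Itgae at 2.76 RPKM. Itgam at 5.42 RPKM and Itga5 at 3.09 RPKM were also above Itgae there. Itgb8, the beta partner of alphaV that serves TGF-beta activation, had 6.17 and 9.30 CPM in P65KO libraries and 28.2 and 25.8 CPM in WT libraries. It was 3.48-fold lower (edgeR quasi-likelihood, adjusted p = 8.83e-05), so both chains of alphaV beta8 were lower in P65KO cells. In RPKM, Itgb8 averaged 2.50 ± 0.714 in P65KO cells and 8.73 ± 0.546 in WT cells (SD, n = 2 each), in each group below its partner Itgav.

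Itga2, Itga3 and Itga7, alpha chains of collagen and laminin receptors that pair with beta1, fell 2.62-fold, 2.61-fold and 3.93-fold at low levels. Itga7 had 9 and 7 counts in P65KO libraries and 35 and 30 counts in WT libraries. The calls of Itga2 and Itga3 ended with DESeq2 (Benjamini-Hochberg adjusted p of 0.329 and 0.236), and that of Itga7 at 0.0660, and all 3 ended without either WT library. Those of Itga2 and Itga3 also ended without P65KO replicate 2 and with no filter on low counts (edgeR quasi-likelihood, adjusted p of 0.120 and 0.0910). Itga5, a fibronectin receptor chain, was at 13.5 ± 0.586 CPM in P65KO cells and 9.40 ± 1.43 CPM in WT cells (SD, n = 2 each) and did not pass, nor did Itga9, Itgad and Itgb5. Without P65KO replicate 1, Itgb5 passed as lower (edgeR quasi-likelihood, adjusted p = 0.0498).

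Of the 3 myeloid alpha chains tested, Itgax and Itgam rose and Itgad did not pass, with 2.43 and 3.54 CPM in P65KO libraries and 0.868 and 1.72 CPM in WT libraries. Itgax had 94.2 and 48.5 CPM in P65KO libraries and 4.12 and 7.53 CPM in WT libraries, 12.2-fold higher (edgeR quasi-likelihood, adjusted p = 1.00e-05). Itgam had 37.0 and 13.7 CPM in P65KO libraries and 8.68 and 8.82 CPM in WT libraries, and its call ended without P65KO replicate 1, where the log2 difference was 0.65 against 1.53 with all libraries. It also ended without either WT library and with no filter on low counts (edgeR quasi-likelihood, adjusted p = 0.190). Of 18 myeloid and dendritic markers tested, 14 rose and 4 did not pass, and the 3 chains are on that list. Of the 3 B cell markers tested, 1 rose and 2 fell, and Pax5 and Ebf1 had 0 counts in all 4 libraries. Cd79b, a chain of the B cell receptor, had 14.1 and 10.2 CPM in P65KO libraries and 33.9 and 39.2 CPM in WT libraries, and Cd22 had 6.17 and 2.88 CPM against 13.5 and 11.4 CPM (edgeR quasi-likelihood, adjusted p of 7.45e-05 and 0.00901). The one that rose, Cd74, the invariant chain of class II antigen presentation, which myeloid and dendritic cells also express, had 1668 and 940.2 CPM in P65KO libraries and 222 and 257 CPM in WT libraries (edgeR quasi-likelihood, adjusted p = 4.62e-06). The part of these cells in the chain values was not tested.

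Integrins bind firmly only after proteins inside the cell, above all talin and kindlin, act on the beta tail under the control of the small GTPase Rap1. Of 49 tested genes of activation and of linkage to the cytoskeleton, 7 rose, 5 fell and 37 did not pass, a share of 24.5% called beside 20.7% of all genes tested. Their median log2 fold change was 0.08. Tln1 (talin) had 923 and 987 CPM in P65KO libraries and 963 and 857 CPM in WT libraries. The 95% interval of its P65KO over WT fold was 0.910 to 1.21 (edgeR quasi-likelihood, adjusted p = 0.669).

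Fermt3, the kindlin of blood cells, averaged 384 ± 8.42 CPM in P65KO cells and 371 ± 8.21 CPM in WT cells (SD, n = 2 each), with a fold interval of 0.907 to 1.18. Rassf5 (RAPL), a Rap1 effector that binds the alphaL tail, averaged 449 ± 22.7 CPM in P65KO cells and 425 ± 27.6 CPM in WT cells and did not pass. Apbb1ip (RIAM), which links Rap1 to talin, averaged 337 ± 0.978 CPM in P65KO cells and 279 ± 17.9 CPM in WT cells (SD, n = 2 each; edgeR quasi-likelihood, adjusted p = 0.0505). It passed with DESeq2's size factors in the edgeR fit (edgeR quasi-likelihood, adjusted p = 0.0459).

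Of the 7 activation and linkage genes that rose, Actn1 changed most. Actn1, an actin crosslinker that stood on the naive and central list as well, had 478 and 540 CPM in P65KO libraries and 264 and 254 CPM in WT libraries, 1.97-fold higher (edgeR quasi-likelihood, adjusted p = 1.51e-05). Rasgrp2, the exchange factor that turns on Rap1 in blood cells, rose 1.498-fold to 196 and 199 CPM in P65KO libraries, against 140 and 124 CPM in WT libraries. Cyth1 (cytohesin-1), which binds the beta2 tail, Rasgrp1, Skap2, the tetraspanin gene Cd9 and Rap1b rose 1.38-fold, 1.31-fold, 1.48-fold, 1.30-fold and 1.27-fold. The calls of these last 5 ended with no filter on low counts (edgeR quasi-likelihood, adjusted p of 0.0771, 0.108, 0.175, 0.0554 and 0.132) and without either WT library. Those of Skap2, Cd9 and Rap1b also ended without P65KO replicate 1, and all but that of Skap2 without P65KO replicate 2. Skap2 and Cd9 did not pass with DESeq2 (Benjamini-Hochberg adjusted p of 0.377 and 0.0513).

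Among the 5 that fell were tetraspanins and a kinase. Cd82, a tetraspanin that associates with integrins, had 314 and 306 CPM in P65KO libraries and 915 and 822 CPM in WT libraries, 2.80-fold lower (edgeR quasi-likelihood, adjusted p = 4.65e-07). Src, the tyrosine kinase, fell 3.71-fold to 4.41 and 8.19 CPM in P65KO libraries, against 24.5 and 22.4 CPM in WT libraries. Adap1, Dok1, an adaptor that competes with talin for beta tails, and the tetraspanin gene Cd81 fell 2.50-fold, 1.81-fold and 1.46-fold. The calls of Adap1 and Cd81 ended with no filter on low counts (edgeR quasi-likelihood, adjusted p of 0.0601 and 0.0582) and without WT replicate 1 (0.0676 and 0.0754), and that of Adap1 also without WT replicate 2 (0.0536).

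**Figure D5:**
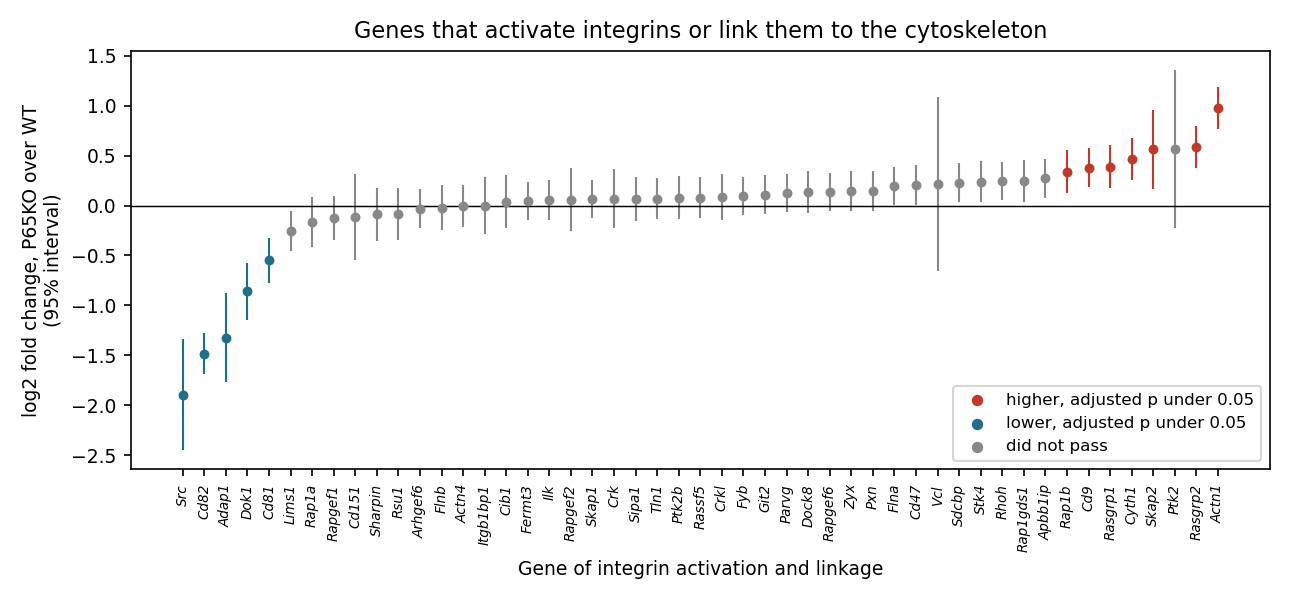
Log2 fold change, P65KO over WT, with its 95% interval for 49 tested genes of integrin activation and linkage, ordered by fold change and coloured by the edgeR call. Most genes lie near 0, with 5 lower genes at the left, led by Src at -1.89 and Cd82 at -1.49, and Actn1 highest at 0.98.

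Most integrin ligand genes had few counts in these cells: of 34 listed, 10 passed the filter on low counts. Of these, 4 rose, 3 fell and 3 did not pass, a share of 70% called beside 20.7% of all genes tested. With no filter on low counts, 0 ligands rose. Icam1, a ligand of LFA-1, had 40.4 and 40.5 CPM in P65KO libraries and 94.6 and 102 CPM in WT libraries, 2.43-fold lower (edgeR quasi-likelihood, adjusted p = 4.51e-06). Icam2, a second ligand of LFA-1, was 1.29-fold higher, a call that ended with DESeq2 (Benjamini-Hochberg adjusted p = 0.212), with no filter on low counts and without any 1 of the 4 libraries. Lamc1, the gamma1 chain of laminins, fell 5.05-fold to 11.5 and 12.8 CPM in P65KO libraries, against 65.5 and 57.5 CPM in WT libraries. Icam5 fell at 2 and 4 counts in P65KO libraries against 21 and 21 counts in WT libraries, a call lost under DESeq2 (adjusted p = 0.0644 by the Benjamini-Hochberg method) or when either WT library was left out.

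Cdh1, the E-cadherin that alphaE beta7 binds, had 54 and 12 counts in P65KO libraries and 4 and 4 counts in WT libraries. Fn1 (fibronectin), the ligand of several beta1 and alphaV integrins, had 449 and 126 counts in P65KO libraries and 47 and 57 in WT libraries. Both rose, and both were higher in P65KO replicate 1, the library with the most myeloid transcripts, whose part in these 2 differences was not tested. Without P65KO replicate 1 the log2 difference was 1.59 for Cdh1 and no longer passed (edgeR quasi-likelihood, adjusted p = 0.179), against 3.04 with all libraries, and 1.31 for Fn1, against 2.50. Without P65KO replicate 2 it was 3.74 for Cdh1 and 3.13 for Fn1. The calls of both also ended with no filter on low counts and without either WT library, and that of Cdh1 with limma-voom (Benjamini-Hochberg adjusted p = 0.0666). Emilin1, a matrix protein bound by alpha4 and alpha9 integrins, rose 2.04-fold, and its call ended with DESeq2, limma-voom, library totals only or no filter, and without P65KO replicate 1 or either WT library.

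Genes whose pattern over the 4 libraries was closest to a member were found by the Euclidean distance between log2 CPM values centred on each gene's mean, over 11171 genes. With 2 groups of 2, this mostly matches the size of the group difference. Closest to Itgae were Vsig10 (distance 0.28), Susd2 (0.39), Actg2 (0.42), Penk (0.42) and Spock2 (0.43), with log2 fold changes between -4.02 and -3.45. Closest to Itgb1 were Lima1 (0.12), Cst7 (0.12), Zc3h12c (0.14), Slc25a53 (0.16) and Naip5 (0.17), with log2 fold changes between -2.49 and -2.02.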

How the data were processed

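RNA was sequenced from 4 libraries of CD4+Foxp3+ Treg cells, 2 P65KO and 2 WT, grouped by their titles. Per the labels' protocols, RNA was isolated on RNeasy Plus columns and libraries were built with an Illumina TruSeq kit. The tools were Subread, featureCounts and limma and the build GRCm38 (mm10), per the submitters' processing notes; their versions, the annotation and the strand setting were not given in the sources used here. Raw counts for each Entrez gene and log2 RPKM values were deposited by the authors, and the latter gave 1 gene length in all 4 libraries, within 0.01, for 27179 genes. RPKM values printed here were recomputed from TMM-scaled counts and those lengths.

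Counts were compared with edgeR 4.0.16 in R 4.3.3 (filterByExpr, TMM, quasi-likelihood F test, two-sided, Benjamini-Hochberg over all 11172 genes tested). The standard error is the log2 fold change divided by the square root of F. The other settings were DESeq2 1.42.0, limma-voom (limma 3.58.1), other scalings, no filter, a replicate block and each library left out. Members, lists and naming rules were chosen with earlier results of these data known. Named were all members, tested chains, ligands past the threshold, and in the activation list 5 fixed genes and up to 6 of the largest changes in each direction. Whether replicates are separate mice is not stated, so p-values reflect the spread of these 4 libraries alone, part of which may be technical. Intervals cover this spread, and shallow genes with few counts are imprecise: 3 counts correspond to 0.646 to 0.664 CPM in a single library. Without a known strand setting, counts of overlapping genes are uncertain.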

Additional observations from a re-analysis of the deposited data

How the results depend on the processing

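The 7 member calls held in each of the 10 other settings run, from -3.97 to -3.53 (log2) for Itgae, -2.34 to -1.94 for Itgb1, -0.97 to -0.79 for Itgav, -0.81 to -0.72 for Itga4, -0.72 to -0.59 for Itgal, 0.60 to 0.69 for Itga6 and 0.99 to 1.08 for Itgb3. Itgb2 and Itgb7 passed in none, and their sign was not stable: without 1 library Itgb2 ran from -0.13 to 0.016 and Itgb7 from -0.085 to 0.16, and Itgb7 was -0.018 with library totals only. Without 1 library, Tln1 ran from -0.0095 to 0.15. The shift of each heterodimer ratio between groups was the same by counts as by RPKM; its level within a library was not. Counts of other lists and of all genes did change, and the cause was not tested. With no filter on low counts, 246 genes rose and 525 fell, against 1005 and 1305; of other chains 1 rose and 2 fell, of activation genes 2 rose and 3 fell, and 0 ligands rose. With DESeq2, 546 rose and 673 fell, 1 other chain fell and 2 ligands rose, as 2 did with limma-voom. Without 1 library, 250 to 682 genes rose and 493 to 1029 fell, of other chains 1 to 3 rose and 1 to 5 fell, of activation genes 2 to 4 rose and 3 to 5 fell, and 0 to 3 ligands rose. Same-numbered libraries did not deviate together (correlation of deviations from the group means -0.14 over 11172 genes). With 2 libraries a group, this sets 1 within-group difference against 1 other, so it cannot decide whether the numbers pair libraries. With the replicate block, 996 genes rose and 1323 fell, and the member calls were 2 higher and 5 lower. With numbers crossed as a block, chosen after seeing the data, 1387 rose and 1586 fell, 12 activation genes rose, and the member calls were again 2 and 5. With 2 libraries a group, small changes of low genes are not detectable.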
